A study of Mus musculus with 90 samples.

Results

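The hypothalamus was compared with the cerebrum, gene by gene, in female mice. By tissue label alone, 6 hypothalamus and 6 cerebrum libraries were taken from an RNA-seq series of 90 libraries covering 15 tissues, and each tissue had 3 libraries of the estrus and 3 of the diestrus phase. The study read the phase from stained vaginal secretions, with serum estrogen and progesterone as a further aid. All mice were wildtype females labelled as C57BL/6 and as 10 weeks old, and no group carried an engineered allele or a drug. The study's methods name the substrain C57BL/6J and give a younger age than the labels. The study names 3 mice per phase as its replicates, but no label says which hypothalamus library and which cerebrum library came from the same mouse, so p-values below measure the spread between these 12 libraries. Values are FPKM, fragments scaled to transcript length and to the mapped fragments of the library, a unit in which levels of different genes can be set side by side. Of the 20414 genes listed, 13280 were tested, namely those whose mean over both tissues reached 1 FPKM. A gene whose mean stayed under 1 FPKM in 1 tissue passed only if the other tissue was higher, so its direction followed from the filter.

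The hypothalamus is a small region at the base of the brain that keeps temperature, water balance, feeding, stress responses and the reproductive cycle within bounds. Its neurons release peptide hormones, either directly into the blood at the posterior pituitary or into the portal vessels that reach the anterior pituitary, and they read circulating signals through receptors for steroids, leptin, ghrelin and other hormones. The cerebrum holds the cortex, the hippocampus and the striatum, in which glutamate-releasing projection neurons and GABA-releasing neurons process sensory, motor and memory signals. The 2 regions arise from neighbouring parts of the embryonic forebrain under different sets of transcription factors, several of which stay expressed in adult neurons.

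Differences are given below as the mean of log2(FPKM + 1) in the hypothalamus minus that in the cerebrum, with the standard error (SE), from a limma fit with phase as a covariate. A gene was called where this log2 difference was at least 1 in size and the Benjamini-Hochberg adjusted p over all 13280 genes was at most 0.05. The hypothalamus was higher for 628 genes (4.73% of those tested) and the cerebrum for 565 (4.25%). Of the hypothalamus calls 127 reached a log2 difference of 2 and 45 a difference of 3, against 120 and 35 of the cerebrum calls. The adjusted p alone was passed by 9600 genes (72.3%), 6919 of them with the higher mean in the hypothalamus, so the size limit decided most calls. For 6664 genes (50.2%) all 6 values of one tissue lay above all 6 of the other, which was also true of 1157 of the 1193 calls, and 1030 calls were made in every fit that left out 1 library. The median log2 difference over all genes was 0.17. After division by a median-of-ratios factor per library this median was -0.002 and the calls split into 459 higher in the hypothalamus and 731 higher in the cerebrum, 38.6% in place of 52.6% on the hypothalamus side, and quantile normalization gave a median of 0.033 and a split of 447 against 690 (39.3%). Differences of single genes and lists are therefore best read against 0.17 rather than against 0. Counts of called list members below are to be set beside 4.73% and 4.25%, and counts without overlap beside 50.2%.

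**Figure D1:**
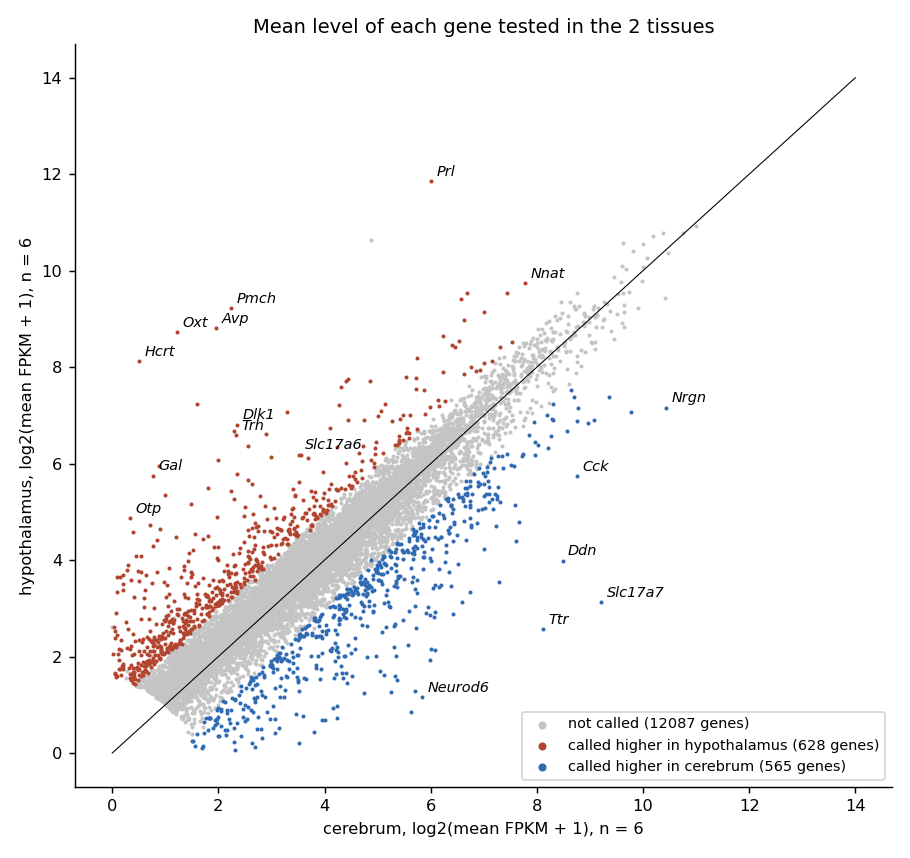
Mean level of each of the 13280 genes tested, as log2(mean FPKM + 1) over 6 libraries, in the cerebrum (horizontal) and the hypothalamus (vertical), with the line of equal levels. The 628 genes called higher in the hypothalamus are red and the 565 called higher in the cerebrum are blue, and labelled peptide genes such as Pmch, Hcrt, Oxt and Avp lie far above the line, while Slc17a7, Ttr, Ddn and Neurod6 lie far below it.

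Libraries of a tissue resembled each other more than those of the other tissue, with Pearson's r of log2(FPKM + 1) across genes of 0.987 to 0.994 among the hypothalamus libraries, 0.978 to 0.994 among the cerebrum libraries and 0.890 to 0.935 between the tissues. Tissue accounted for 79.9% of the summed squares of log2(FPKM + 1) and differences between libraries of the same tissue and phase for 16.4%. The spread within a tissue was the larger one in the cerebrum for 75.4% of genes, and the median SD over genes was 0.079 in the hypothalamus and 0.124 in the cerebrum. Otp and Hcrt were present in every hypothalamus library and under 1 FPKM in every cerebrum library. Slc17a7 lay at 469 FPKM or more in every cerebrum library and at most 21.2 FPKM in any hypothalamus library. These genes are among the leading ones named below, which were chosen for groups without overlap, so they are no independent check of the labels. One library stood apart in pituitary genes. Hypothalamus estrus replicate 2 carried the anterior pituitary hormone genes Prl at 21607 FPKM and Gh at 9200 FPKM, where the other 5 hypothalamus libraries held 9.29 to 262 FPKM of Prl, and 12 pituitary genes made up 7.69% of its FPKM sum against at most 0.0925% in those 5. Without that library 1182 genes were called, and 38 of the 1193 calls were lost and 26 gained. The 30 leading genes named below were chosen among calls made in every fit that left out 1 library, so this fit could not lose them. The files hold no read counts. A rough read depth, estimated from the steps between low values, was 14.3 to 15.6 M reads in the 12 libraries, and only 50% to 66% of those values lay within 0.2 of a whole read. The study's methods state a higher number of reads generated per sample.

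The genes that separated the tissues by the most were hypothalamic peptides. Pmch encodes melanin-concentrating hormone, a peptide of lateral hypothalamic neurons that promotes feeding and sleep. It lay at 508 to 725 FPKM (median 574) in the hypothalamus and at 0.32 to 16.8 FPKM (median 1.19) in the cerebrum, a log2 difference of 7.67 ± 0.46 (adjusted p = 2.14e-08), with the cerebrum maximum in estrus replicate 2. Hcrt, the precursor of the wake-promoting orexins, lay at 230 to 360 FPKM (median 251) against 0.22 to 0.78 FPKM (median 0.285), a log2 difference of 7.62 ± 0.14 (adjusted p = 5.04e-12). No cerebrum library reached 1 FPKM of it. Oxt encodes oxytocin, which acts in birth, milk let-down and social behaviour, and ranged from 191 to 546 FPKM (median 457) against 0.03 to 3.24 FPKM (median 0.795), a log2 difference of 7.60 ± 0.33 (adjusted p = 1.23e-09). Avp, the gene of the antidiuretic hormone vasopressin, ranged from 310 to 516 FPKM (median 476) against 0.64 to 9.98 FPKM (median 1.33), a log2 difference of 7.21 ± 0.36 (adjusted p = 4.52e-09). For each of the 4 genes the lowest hypothalamus library stood far above the highest cerebrum library. In bulk tissue fewer cells of a type and less RNA per cell cannot be told apart, here and below.

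The sequences just upstream of these 4 genes are shown because the genes lead the comparison. Each is the 250 bases before the annotated start in the RefSeq table of assembly GRCm38.p6, written 5′ to 3′ on the gene's strand. Capitals mark exact matches, on either strand, to 5 motifs that were searched for in 27025 mouse promoters of this length. The TATA box TATAAA was present in 13% of all these promoters. The E-box searched for, CAGATG, was present in 14.5% and the homeodomain site, which is its own reverse complement, in 4.9%. The letters of that site are TAATTA. A nuclear receptor half-site, with the letters TGACCT, was present in 13.8%. The cAMP response element TGACGTCA was present in 1.6% and in none of the sequences shown. A match is a description of letters and not a measured site. Hcrt (chr11:100762932-100763181, minus strand) held TATAAA 33 bases before its start, and Pmch (chr10:88090822-88091071, plus strand) held it 27 bases before. Oxt (chr2:130575919-130576168, plus strand) held the half-site at 185 and 166 bases before its start, once on each strand, and Avp (chr2:130582589-130582838, minus strand) held CAGATG 127 bases before. Oxt and Avp are neighbours on chromosome 2 and are read towards each other.
Hcrt: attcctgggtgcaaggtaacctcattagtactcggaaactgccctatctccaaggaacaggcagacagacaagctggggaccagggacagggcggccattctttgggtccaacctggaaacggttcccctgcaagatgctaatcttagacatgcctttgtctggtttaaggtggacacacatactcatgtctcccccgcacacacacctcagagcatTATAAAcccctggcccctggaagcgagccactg
Pmch: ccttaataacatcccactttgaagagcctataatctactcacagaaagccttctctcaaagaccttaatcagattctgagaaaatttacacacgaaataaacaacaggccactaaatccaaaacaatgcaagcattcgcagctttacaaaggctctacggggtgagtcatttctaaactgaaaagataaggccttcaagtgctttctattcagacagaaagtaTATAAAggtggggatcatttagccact
Oxt: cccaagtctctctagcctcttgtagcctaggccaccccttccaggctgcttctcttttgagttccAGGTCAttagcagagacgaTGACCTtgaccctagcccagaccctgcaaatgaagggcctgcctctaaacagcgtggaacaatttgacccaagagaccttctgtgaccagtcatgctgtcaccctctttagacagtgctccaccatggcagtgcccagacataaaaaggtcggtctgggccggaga
Avp: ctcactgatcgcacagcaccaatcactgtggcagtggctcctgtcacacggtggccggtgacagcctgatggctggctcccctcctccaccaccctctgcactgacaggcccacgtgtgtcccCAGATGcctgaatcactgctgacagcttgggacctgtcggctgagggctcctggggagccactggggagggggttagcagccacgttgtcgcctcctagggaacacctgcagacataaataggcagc

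**Figure D2:**
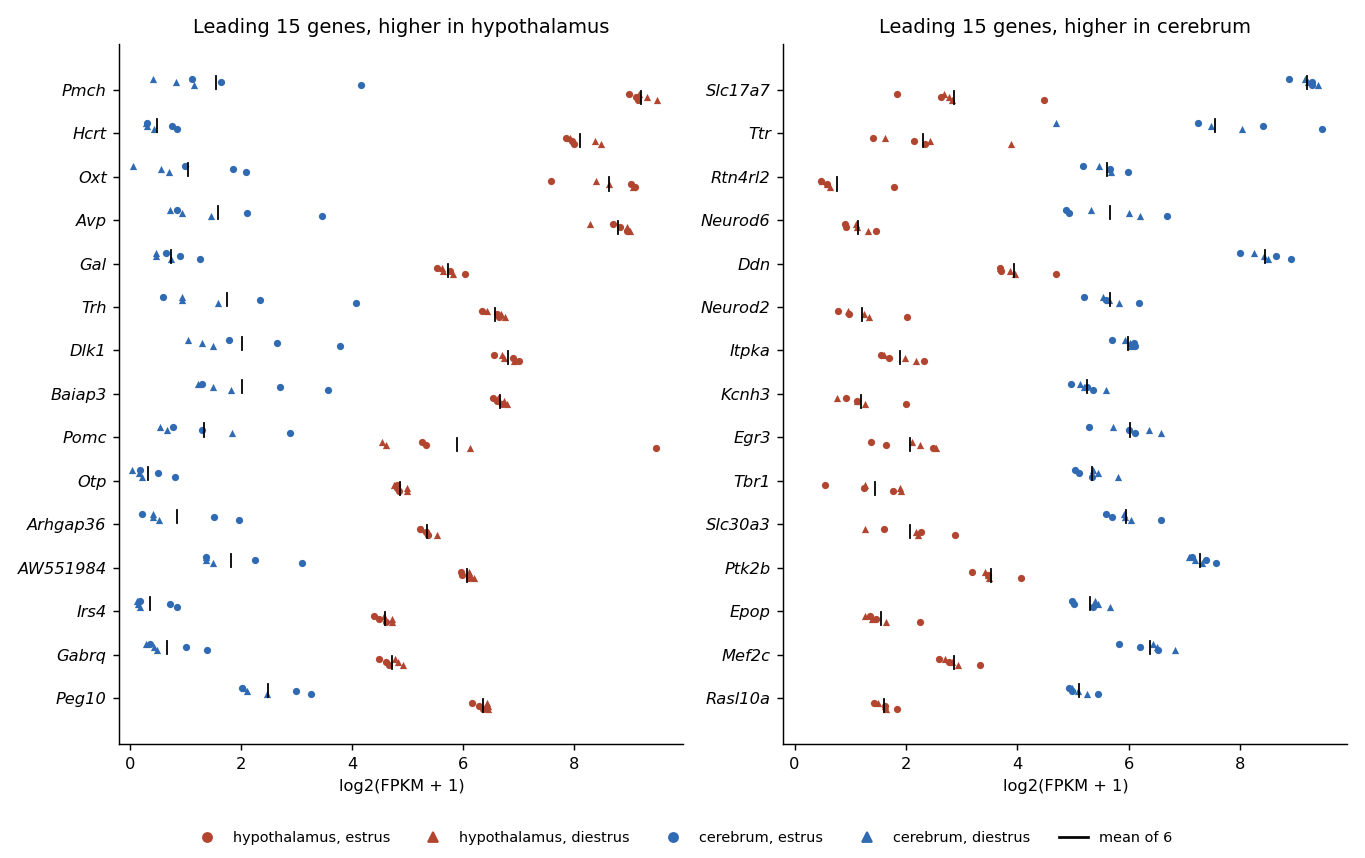
Values of the 15 leading genes in each direction, as log2(FPKM + 1) per library (circles, estrus; triangles, diestrus; red, hypothalamus; blue, cerebrum), with a vertical bar at the mean of 6. These have the largest log2 difference among calls without overlap that every fit leaving out 1 library also made. Red and blue points of a gene are therefore apart by choice. The highest Pomc point is hypothalamus estrus replicate 2 at 711 FPKM and the lowest blue Ttr point is cerebrum diestrus replicate 3 at 25 FPKM.

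Peptides and other secreted regulators of feeding and energy balance were mostly higher in the hypothalamus. Of 13 tested list members 9 were called higher there and 1 higher in the cerebrum, with a median log2 difference of 3.55 against 0.17 over all genes. Hcrt, Gal, Npvf, Agrp and Ucn3 had cerebrum means under 1 FPKM and were tested only through their hypothalamus values. The filter thus set their direction, and the count of 9 and the median rest in part on them. Gal (galanin) lay at 45.2 to 64.7 FPKM (median 51.0) against 0.37 to 1.38 FPKM (median 0.605), a log2 difference of 5.0 ± 0.12. Trh, the thyrotropin-releasing hormone gene, lay at 80.4 to 108 FPKM (median 97.8) against 0.50 to 15.7 FPKM (median 1.46), with a difference of 4.84 ± 0.46 on the log2 scale. Its cerebrum maximum was in estrus replicate 3, and the other cerebrum libraries held 0.50 to 4.07 FPKM. Pomc, the precursor of the satiety peptide alpha-MSH and of pituitary ACTH, lay at 22.1 to 711 FPKM (median 38.2) against 0.45 to 6.34 FPKM (median 1.07), a log2 difference of 4.56 ± 0.69 (adjusted p = 6.52e-05). Its maximum was in the library rich in Prl and Gh, and the other 5 hypothalamus libraries, at 22.1 to 68.7 FPKM, still lay above every cerebrum library. Cartpt, whose CART peptide reduces feeding, lay at 66.5 to 201 FPKM (median 79.3) against 2.02 to 10.3 FPKM (median 6.54), Npvf, the gene of RFamide-related peptides, at 9.34 to 14.8 FPKM (median 11.2) against 0 to 0.12 FPKM (median 0.055), and Agrp, whose product stimulates feeding, at 5.01 to 15.7 FPKM (median 7.51) against 0.19 to 0.55 FPKM (median 0.32). These 3 had log2 differences of 3.78 ± 0.35, 3.55 ± 0.10 and 2.76 ± 0.19, without overlap of the groups. Ucn3 (urocortin 3) was lower in level, at 0.21 to 4.64 FPKM against 0 to 0.55 FPKM, with a log2 difference of 1.49 ± 0.33, and its groups overlapped.

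Other members and relatives did not follow that direction. Npy, the gene of the appetite stimulant neuropeptide Y, which is also made by cortical interneurons, was called higher in the cerebrum, at 100 to 205 FPKM (median 139) against 49.5 to 102 FPKM (median 63.9), a log2 difference of -1.03 ± 0.18 (adjusted p = 0.000234). The highest hypothalamus library overlapped the lowest cerebrum library, and without hypothalamus estrus replicate 2 the log2 difference was -0.94, under the limit. The corticotropin-releasing hormone gene Crh lay at 1.57 to 4.67 FPKM (median 4.39) in the hypothalamus and 2.34 to 5.39 FPKM (median 4.40) in the cerebrum, a log2 difference of -0.22 ± 0.22 (adjusted p = 0.393). Sst, which encodes somatostatin, the inhibitor of growth hormone release and a marker of cortical interneurons, lay at 297 to 380 FPKM (median 319) against 320 to 531 FPKM (median 379), a log2 difference of -0.27 ± 0.10 with overlapping groups. Nucb2, the gene of nesfatin-1, had a log2 difference of 0.90 ± 0.10 without overlap and Bdnf, a neuronal growth factor, one of -0.59 ± 0.14, and both stayed under the limit.

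Among 9 tested hormones of the posterior pituitary and releasing hormones, 7 were called higher in the hypothalamus and none in the cerebrum, the median log2 difference being 3.54. Ghrh, Kiss1 and Gnrh1 had cerebrum means under 1 FPKM, so the filter set their direction. The count of 7 and the median rest in part on them. Oxt, Avp and Trh have been described above. Ghrh, the growth hormone-releasing hormone gene, lay at 13.7 to 17 FPKM (median 16.5) against 0.17 to 0.81 FPKM (median 0.45), a log2 difference of 3.54 ± 0.10. Kiss1, the gene of kisspeptin, which drives the neurons of the reproductive axis, lay at 1.93 to 5.05 FPKM (median 3.62) against 0.30 to 0.95 FPKM (median 0.41), a log2 difference of 1.5 ± 0.17 (adjusted p = 6.08e-06). Gnrh1 encodes the hormone that those neurons release to stimulate the gonadotropins, and it lay at 1.61 to 5.14 FPKM (median 3.93) against 0.47 to 1.27 FPKM (median 0.655), a log2 difference of 1.42 ± 0.19 (adjusted p = 2.03e-05). Both reproductive genes were separated between the tissues at levels of a few FPKM, far under those of Oxt and Avp, and with a pseudocount of 5 their log2 differences of 0.59 and 0.60 end the calls.

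Of 20 other neuropeptides and secreted proteins, 10 were called higher in the hypothalamus and 4 in the cerebrum, with a median log2 difference of 1.02. The synaptic organizer Cbln1 differed by 3.25 ± 0.23 on the log2 scale (median 69.6 against 7.08 FPKM), Adcyap1, the gene of PACAP, by 2.97 ± 0.11 (35.0 against 3.78 FPKM) and Tac2, which encodes neurokinin B, by 2.46 ± 0.15 (69.0 against 11.5 FPKM). Scg2, a granin of dense-core vesicles, reached 470 to 540 FPKM (median 491) against 83.8 to 120 FPKM (median 95.8), a log2 difference of 2.35 ± 0.08. The peptides called for the cerebrum are ones that cortical neurons make. Cck (cholecystokinin) lay at 358 to 492 FPKM (median 446) in the cerebrum and 39.6 to 74.4 FPKM (median 51.7) in the hypothalamus, a log2 difference of -3.04 ± 0.14 (adjusted p = 2.31e-09), Cort (cortistatin) differed by -2.65 ± 0.20 and Vip (vasoactive intestinal peptide) by -1.5 ± 0.18, each without overlap. The fourth call was Crym, a thyroid hormone-binding protein that stands in the list without being a peptide, at -3.16 ± 0.37. The opioid precursor Pdyn differed by 1.13 ± 0.26 on the log2 scale, whereas Penk differed by 0.04 ± 0.76 (adjusted p = 0.969), with cerebrum libraries from 15.5 to 378 FPKM around hypothalamus libraries from 76.8 to 89.6 FPKM. The Pdyn call ended under median-of-ratios scaling, at 0.94.

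Receptors for feeding signals were called for the hypothalamus where they were called. Of 15 tested, 7 were higher in the hypothalamus and none in the cerebrum, with a median log2 difference of 0.91. Calcr, the calcitonin receptor, through which amylin also signals, lay at 9.19 to 12.8 FPKM (median 11.8) against 0 to 0.27 FPKM (median 0.045), a log2 difference of 3.51 ± 0.09 (adjusted p = 3.19e-11). The cholecystokinin receptor gene Cckar differed by 1.98 ± 0.10, the melanocortin receptor gene Mc3r by 1.62 ± 0.11, the bombesin-like receptor gene Brs3 by 1.49 ± 0.10 and the ghrelin receptor gene Ghsr by 1.44 ± 0.09, with hypothalamus medians of 3.34, 2.59, 2.08 and 1.88 FPKM and cerebrum medians of at most 0.1 FPKM. Calcr, Cckar, Mc3r, Brs3 and Ghsr reached the mean of 1 FPKM over both tissues only through their hypothalamus values. Their direction was thus set by the filter, and the count of 7 rests in part on them. The orexin receptor genes Hcrtr2 and Hcrtr1 had smaller log2 differences, 1.2 ± 0.08 and 1.05 ± 0.12. Receptors of other feeding signals were not called. Mchr1, the receptor of melanin-concentrating hormone, lay at 5.81 to 6.81 FPKM in the hypothalamus against 9.24 to 13.9 FPKM in the cerebrum, a log2 difference of -0.71 ± 0.09 without overlap, so that peptide and receptor differed in opposite directions, the receptor under the limit of 1. The neuropeptide Y receptor gene Npy1r differed by -0.44 ± 0.10, the melanocortin receptor gene Mc4r by 0.44 ± 0.12 and the leptin receptor gene Lepr by 0.16 ± 0.08 (adjusted p = 0.0819). The 6 receptor calls other than Calcr end with a pseudocount of 5, at log2 differences of 0.44 to 0.71, and the Hcrtr1 call also ends under median-of-ratios scaling, at 0.92.

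Genes of monoamine and acetylcholine transmission were, where called, higher in the hypothalamus as well. Of 13 tested, 7 were called higher there and none in the cerebrum, with a median log2 difference of 1.03. Th, tyrosine hydroxylase, makes the precursor of dopamine and lay at 21.8 to 79.7 FPKM (median 27.2) against 0.36 to 6.41 FPKM (median 0.76), a log2 difference of 3.84 ± 0.38. Hdc, which makes histamine in neurons of the tuberomammillary nucleus, lay at 13.4 to 23.8 FPKM (median 18.0) against 0.39 to 0.97 FPKM (median 0.745), a log2 difference of 3.52 ± 0.12. The decarboxylase gene Ddc differed by 2.99 ± 0.27, the vesicular monoamine transporter gene Slc18a2 by 2.31 ± 0.19 and acetylcholinesterase, Ache, by 1.98 ± 0.07, all on the log2 scale and without overlap. Th, Ddc and Slc18a2 shared a maximum in hypothalamus estrus replicate 3, at 79.7, 52.5 and 33.8 FPKM against 21.8 to 29.8, 19.9 to 26.3 and 12.1 to 16.9 FPKM in the other 5 libraries. The same library held the highest value of the dopamine transporter gene Slc6a3, 42.2 FPKM against 0.68 to 7.46 FPKM, and cerebrum estrus replicate 3 held 5.97 FPKM against 0.04 to 0.15 FPKM in the other cerebrum libraries, so the Slc6a3 groups overlapped at a log2 difference of 2.04 ± 0.69 (adjusted p = 0.0181). Whether tissue from neighbouring dopamine nuclei entered these 2 libraries was not tested.

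The machinery that processes peptides was in part higher in the hypothalamus. Of 17 tested genes 6 were called higher there and none in the cerebrum, with a median log2 difference of 0.48. Baiap3, which acts in dense-core vesicle traffic, lay at 91.9 to 109 FPKM (median 100) against 1.33 to 10.9 FPKM (median 2.15), a log2 difference of 4.66 ± 0.32. Gpx3, a secreted glutathione peroxidase, differed by 3.32 ± 0.11 and Resp18, a protein of endocrine secretory granules, by 2.88 ± 0.12, the latter at 638 to 717 FPKM against 71.7 to 139 FPKM. The granin gene Chga differed by 1.03 ± 0.08 and the amidating enzyme gene Pam by 1.04 ± 0.07, but these calls end under median-of-ratios scaling, at 0.83 and 0.84. The general processing enzymes were not called. Carboxypeptidase E, Cpe, lay at 706 to 782 FPKM (median 736) against 665 to 902 FPKM (median 828), a log2 difference of -0.09 ± 0.07 (adjusted p = 0.256), and the convertase gene Pcsk2 differed by -0.60 ± 0.09.

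Transcription factors of hypothalamic development and cell identity were for the most part higher in the hypothalamus. Of 36 tested, 26 were called higher in the hypothalamus and 2 in the cerebrum, with a median log2 difference of 1.85, and 30 of the 36 did not overlap, where 50.2% of all genes tested did not. Otp, which is needed for oxytocin, vasopressin and other neuroendocrine neurons, lay at 26.0 to 30.8 FPKM (median 27.5) against 0.02 to 0.75 FPKM (median 0.135), a log2 difference of 4.56 ± 0.11 (adjusted p = 2.45e-11). Nkx2-1, which patterns the ventral forebrain, lay at 17.3 to 25 FPKM (median 19.4) against 0.16 to 1.89 FPKM (median 0.64), a log2 difference of 3.64 ± 0.19. Fezf1 (3.59 ± 0.13), Bsx (3.24 ± 0.11), Foxb1 (3.16 ± 0.15), Nr5a1 (2.81 ± 0.12) and Sim1 (1.96 ± 0.09) followed on the same log2 scale. Among these Foxb1 marks the mammillary region, Nr5a1 and Fezf1 the ventromedial nucleus, Bsx the arcuate nucleus and Sim1 the paraventricular nucleus. The highest cerebrum value among these 5 was 0.58 FPKM, of Foxb1, so factors of several nuclei were present in the hypothalamus libraries and near 0 in the cerebrum libraries. Otp, Nkx2-1 and these 5 had cerebrum means under 1 FPKM, so the filter set their direction. The count of 26 rests in part on them. Six3, a factor of the anterior forebrain, was higher in the hypothalamus by 2.69 ± 0.61, with cerebrum values from 0.18 to 14.5 FPKM. The 2 list members called higher in the cerebrum, Meis2 (-2.10 ± 0.26) and Lhx6 (-1.11 ± 0.22), are factors that GABA neurons of the striatum and cortex also use.

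Transcription factors of the telencephalon ran the other way. Of 34 tested, 24 were called higher in the cerebrum and 1 in the hypothalamus, with a median log2 difference of -1.55. Neurod6, a factor of cortical and hippocampal excitatory neurons, lay at 28.3 to 102 FPKM (median 51.2) in the cerebrum and 0.88 to 1.76 FPKM (median 1.17) in the hypothalamus, a log2 difference of -4.53 ± 0.28 (adjusted p = 2.55e-08). Its relative Neurod2 lay at 35.7 to 71.9 FPKM (median 48.3) against 0.72 to 3.05 FPKM (median 1.17), a log2 difference of -4.45 ± 0.20, and Tbr1, a factor of deep-layer cortical neurons, at 31.7 to 54.8 FPKM (median 39.8) against 0.46 to 2.78 FPKM (median 1.90), a log2 difference of -3.91 ± 0.18. All 3 separated the tissues without overlap. Mef2c, which acts in activity-dependent synapse remodelling, differed by -3.53 ± 0.15, the dorsal telencephalic factor Emx1 by -3.29 ± 0.12, Fezf2 of subcerebral projection neurons by -2.84 ± 0.22 and the cortical patterning factor Lhx2 by -2.63 ± 0.17. The exception was Nr2f2, called higher in the hypothalamus by 1.03 ± 0.23 with overlapping groups. Cerebrum estrus replicate 3 held 27.7 FPKM of it against 7.0 to 10.2 FPKM in the other cerebrum libraries, and the call was made in 6 of the 12 fits that left out 1 library and in neither rescaled fit, at 0.85 under median-of-ratios scaling. Cux1, often used as an upper-layer factor, differed by 0.14 ± 0.12 (adjusted p = 0.311).

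Genes of excitatory cortical neurons were called higher in the cerebrum for 26 of 30 tested members and in the hypothalamus for none. The median log2 difference was -2.55. All 30 had non-overlapping groups, where 50.2% of all genes tested did. In 1 of them, Rasgrf2, the hypothalamus was the higher tissue, at a mean of 36.9 against 21.5 FPKM, without a call. Slc17a7, the vesicular glutamate transporter VGLUT1 of cortical neurons, lay at 469 to 675 FPKM (median 610) in the cerebrum and 2.60 to 21.2 FPKM (median 5.62) in the hypothalamus, a log2 difference of -6.34 ± 0.33 (adjusted p = 5.27e-09). Slc17a6 is the transporter VGLUT2 used by most subcortical glutamate neurons, and it lay at 67.6 to 77.7 FPKM (median 71.2) in the hypothalamus against 6.79 to 16.1 FPKM (median 8.95), a log2 difference of 2.73 ± 0.17. The ratio of Slc17a7 to Slc17a6 was 0.0363 to 0.312 in the hypothalamus libraries and 32.9 to 87.8 in the cerebrum libraries, so the carrier that dominated changed in every library. The 0.312 belonged to hypothalamus estrus replicate 1, which also held the highest hypothalamus values of Rtn4rl2 (2.46 against 0.39 to 0.55 FPKM), Ddn (24.8 against 11.9 to 14.6 FPKM) and Nrgn (263 against 105 to 137 FPKM), and all of these lay below the cerebrum range.

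Other genes on this side act at the synapse. Nrgn (neurogranin), a calmodulin-binding protein of dendritic spines, lay at 1031 to 1847 FPKM (median 1370) against 105 to 263 FPKM (median 119), a log2 difference of -3.34 ± 0.21. Ddn (dendrin) lay at 256 to 484 FPKM (median 351) against 11.9 to 24.8 FPKM (median 12.8), a log2 difference of -4.52 ± 0.18, and Rtn4rl2, a Nogo receptor homolog, at 35.4 to 62.3 FPKM (median 49.3) against 0.39 to 2.46 FPKM (median 0.495), one of -4.85 ± 0.21. The neurogranin, dendrin and Rtn4rl2 groups did not overlap. The kinase genes Itpka, Ptk2b and Camk2a differed by -4.10 ± 0.13, -3.76 ± 0.12 and -2.71 ± 0.10, Camk2n1, an inhibitor of CaM kinase II, by -2.13 ± 0.12, the potassium channel gene Kcnh3 by -4.04 ± 0.18 and Slc30a3, which loads zinc into glutamatergic vesicles, by -3.89 ± 0.24. Epop, a partner of Polycomb complexes (-3.75 ± 0.17), and the small GTPase gene Rasl10a (-3.50 ± 0.09) were also among the 15 leading genes on this side. Rtn4rl2, Ptk2b, Slc30a3, Epop and Rasl10a stand in none of the lists.

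Upstream sequences of 4 leading neuronal genes of the cerebrum are set beside those of the peptides, in the same table, window and notation. The annotated start of Slc17a7 follows chr7:45163671-45163920 (plus strand), that of Neurod6 chr6:55681264-55681513 (minus), that of Neurod2 chr11:98329646-98329895 (minus) and that of Tbr1 chr2:61804203-61804452 (plus). Slc17a7 and Neurod6 held none of the 5 motifs in this window. Neurod2 held CAGATG 118 bases before its start and Tbr1 held TAATTA at 33 and 18 bases before. Of the 30 leading genes 23 had a promoter in the RefSeq table.
Slc17a7: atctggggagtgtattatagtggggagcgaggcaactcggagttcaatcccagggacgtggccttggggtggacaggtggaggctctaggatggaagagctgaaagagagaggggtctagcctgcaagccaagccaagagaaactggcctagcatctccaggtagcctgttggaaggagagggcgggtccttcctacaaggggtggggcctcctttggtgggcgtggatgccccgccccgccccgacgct
Neurod6: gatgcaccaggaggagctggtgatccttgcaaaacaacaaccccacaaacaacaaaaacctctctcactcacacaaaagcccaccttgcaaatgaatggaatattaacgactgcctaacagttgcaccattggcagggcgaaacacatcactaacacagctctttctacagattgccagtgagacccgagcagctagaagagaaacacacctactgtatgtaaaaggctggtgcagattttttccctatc
Neurod2: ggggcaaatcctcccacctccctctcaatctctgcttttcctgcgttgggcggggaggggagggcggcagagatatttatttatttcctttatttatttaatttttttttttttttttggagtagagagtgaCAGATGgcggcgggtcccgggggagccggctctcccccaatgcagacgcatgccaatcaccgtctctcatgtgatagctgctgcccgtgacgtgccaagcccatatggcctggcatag
Tbr1: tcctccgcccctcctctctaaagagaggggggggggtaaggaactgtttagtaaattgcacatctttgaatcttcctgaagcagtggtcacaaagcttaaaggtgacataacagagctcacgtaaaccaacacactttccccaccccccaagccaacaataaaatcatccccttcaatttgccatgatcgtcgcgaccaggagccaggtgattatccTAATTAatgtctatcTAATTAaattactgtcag

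Immediate early genes, which neurons switch on within minutes of activity, were called in the cerebrum direction for 12 of 20 tested members and for none in the hypothalamus direction, with a median log2 difference of -1.65. Egr3 lay at 38.2 to 95.0 FPKM (median 65.7) in the cerebrum and 1.6 to 4.79 FPKM (median 3.56) in the hypothalamus, a log2 difference of -3.95 ± 0.21, and Arc, whose product regulates synaptic AMPA receptors, at 35.4 to 150 FPKM (median 100) against 5.76 to 10.6 FPKM (median 7.58), one of -3.31 ± 0.32. Egr4, Homer1, Egr1 and Nr4a1 differed by -2.80 ± 0.15, -2.62 ± 0.13, -2.52 ± 0.17 and -2.27 ± 0.18. Fos lay at 8.71 to 18.9 FPKM (median 10.6) in the hypothalamus and 8.13 to 23.5 FPKM (median 14.6) in the cerebrum, a log2 difference of -0.33 ± 0.21 (adjusted p = 0.169). Npas4 differed by -0.72 ± 0.19 and Jund by 0.17 ± 0.06, both with overlap. The list therefore held members with separated groups beside Fos and Jund, whose groups overlapped.

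**Figure D3:**
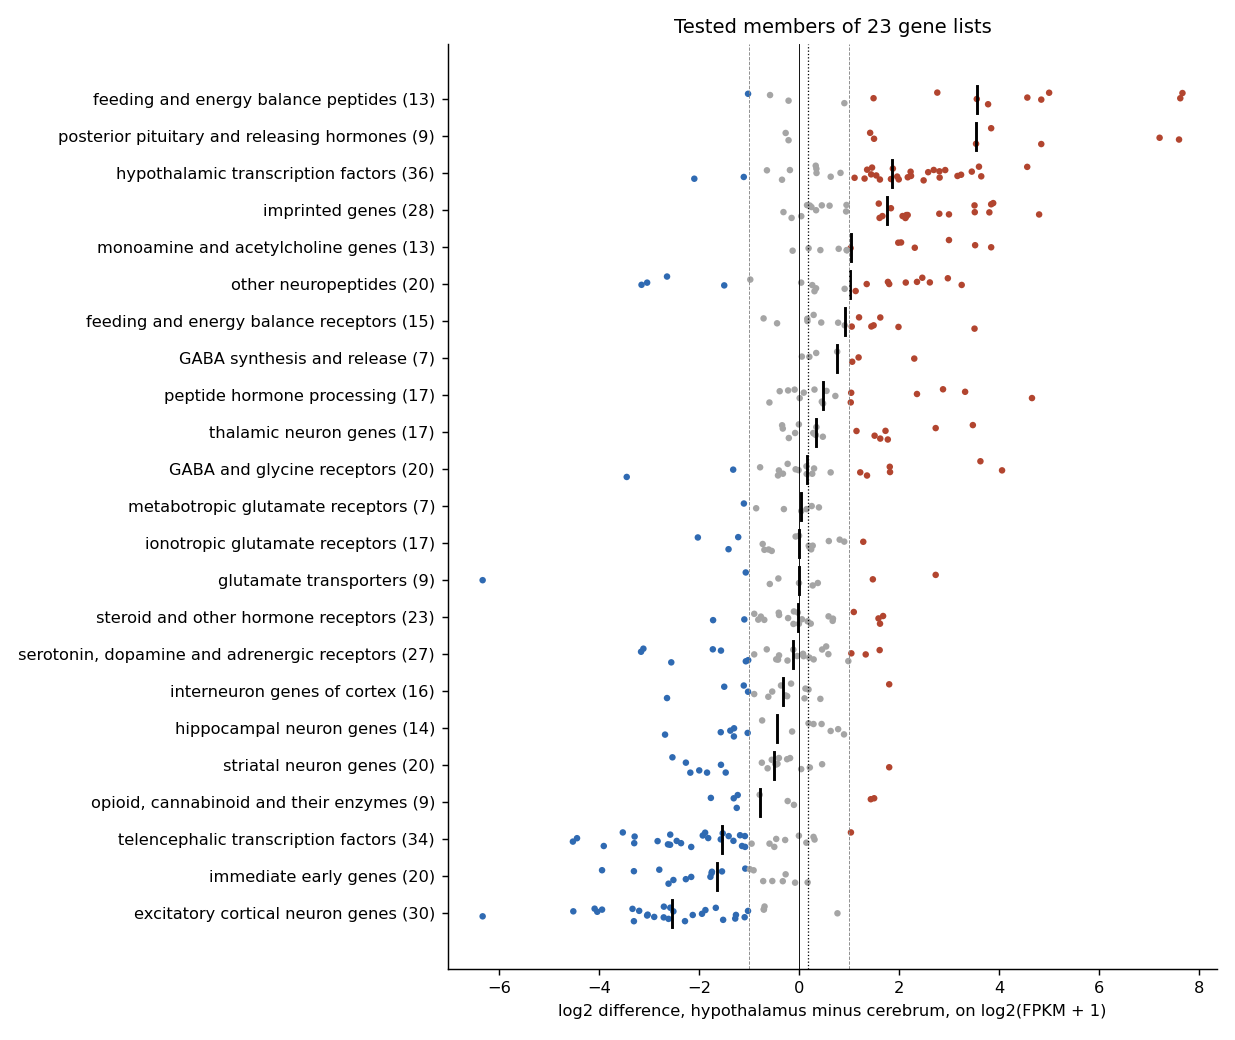
Log2 difference, hypothalamus minus cerebrum on log2(FPKM + 1), of every tested member of 23 gene lists, 1 point per gene, with the number tested in brackets. Red points were called higher in the hypothalamus, blue points higher in the cerebrum and grey points were not called, the black bar is the list's median, the dashed lines mark the limit of 1 and the dotted line the median of all genes, 0.17. Medians run from 3.55 for feeding peptides to -2.55 for excitatory cortical neuron genes.

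Genes of the other cerebral regions varied widely between the cerebrum libraries. Of 20 tested striatal neuron genes 7 were called higher in the cerebrum and 1 in the hypothalamus (median log2 difference -0.52), and the median SD of log2(FPKM + 1) over these genes was 1.44 in the cerebrum and 0.125 in the hypothalamus. Their mean log2(FPKM + 1) was 5.84 in cerebrum estrus replicate 2 and 5.81 in diestrus replicate 1, then 4.48 in estrus replicate 3 and 3.05 to 3.39 in the other 3, against 3.42 to 3.60 in the hypothalamus. The dopamine receptor gene Drd1, for instance, was at 28.9, 23.1 and 9.20 FPKM in those first 3 libraries and at 2.30 to 3.74 FPKM in the rest, while the hypothalamus held 1.56 to 2.43 FPKM. Ppp1r1b (DARPP-32), a phosphatase inhibitor of striatal projection neurons, was called at a log2 difference of -2.54 ± 0.60, the adenosine receptor gene Adora2a at -2.27 ± 0.77 and the sodium channel subunit gene Scn4b at -2.0 ± 0.65. Drd2 differed by 0.46 ± 0.70 (adjusted p = 0.57), with 2.13 to 49.9 FPKM in the cerebrum around 11.6 to 18.3 FPKM in the hypothalamus. Tac1, the substance P precursor, was the list member called higher in the hypothalamus, at 55.7 to 75.0 FPKM against 6.79 to 54.6 FPKM, a log2 difference of 1.80 ± 0.47. Without the 2 cerebrum libraries highest in these genes, a choice made after seeing the data, the median log2 difference of the list was 0.03, the calls of Adora2a, Drd1 and Scn4b ended and Drd2 was called at 1.53. The share of striatum in each cerebrum piece was not measured here.

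The hippocampal genes were lowest in the cerebrum libraries that were highest in striatal genes. Their mean log2(FPKM + 1) was 4.08 in cerebrum estrus replicate 1, 3.40 to 3.58 in 3 further libraries, and 2.81 and 2.66 in estrus replicate 2 and diestrus replicate 1, against 2.79 to 2.91 in the hypothalamus. Of 14 tested, 6 were called higher in the cerebrum and none in the hypothalamus (median log2 difference -0.44). Wipf3, an actin regulator, differed by -2.69 ± 0.16 without overlap. The groups of Fibcd1, a marker of CA1 neurons, and Spink8 overlapped, since their cerebrum values ran from 2.05 to 19.4 FPKM and from 0.38 to 10.6 FPKM, and their log2 differences were -1.38 ± 0.40 and -1.31 ± 0.41. Neurod1, a factor of granule neurons that is also on the telencephalic list, differed by -1.57 ± 0.14. With genes of at least 5 FPKM alone the median of the hippocampal list was 0.18 in place of -0.44. Thalamic genes, of which 7 of 17 were called higher in the hypothalamus and none in the cerebrum (median log2 difference 0.34), included Calb2 (calretinin) at 3.47 ± 0.32, Slc17a6, and Tcf7l2 at 1.72 ± 0.39 with overlapping groups. Parvalbumin, Pvalb, from the cortical interneuron list (1 called higher in the hypothalamus, 4 in the cerebrum, of 16, median -0.32) differed by -0.54 ± 0.31 (adjusted p = 0.13).

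**Figure D4:**
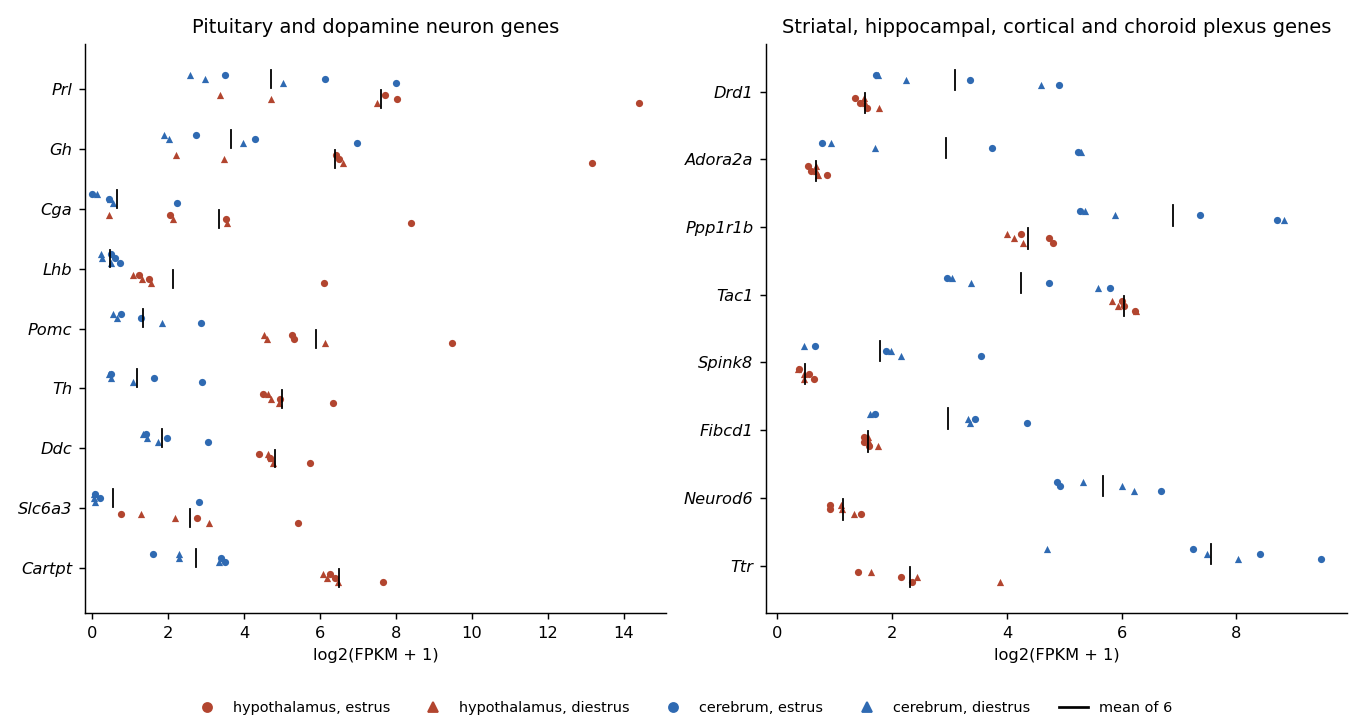
Values per library as log2(FPKM + 1) for pituitary and dopamine neuron genes (left) and for striatal, hippocampal, cortical and choroid plexus genes (right), with circles for estrus, triangles for diestrus and a vertical bar at the mean of 6. On the left 1 red circle, hypothalamus estrus replicate 2, lies far to the right for Prl, Gh, Cga, Lhb and Pomc, and on the right the blue points of Drd1, Adora2a and Ppp1r1b spread over several log2 units while the red points stay close together.

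GABA synthesis showed unlike behaviour of the 2 decarboxylase genes. Gad2 was called higher in the hypothalamus, at 77.5 to 115 FPKM (median 96.2) against 36.3 to 62.8 FPKM (median 46.8), a log2 difference of 1.06 ± 0.13, which was 0.86 under median-of-ratios scaling. Gad1 lay at 96.4 to 117 FPKM (median 105) against 90.9 to 121 FPKM (median 98.2), a log2 difference of 0.05 ± 0.07 (adjusted p = 0.544). The transporter gene Slc6a11 (GAT3), which takes up GABA into astrocytes, lay at 208 to 237 FPKM (median 222) against 33.0 to 58.0 FPKM (median 45.4), a log2 difference of 2.30 ± 0.12, and the vesicular transporter gene Slc32a1 differed by 0.76 ± 0.16. Of 7 genes tested 3 were called higher in the hypothalamus (median 0.76). Among 9 glutamate transporters 2 were called in each direction (median -0.01), with the astrocytic Slc1a2 (GLT-1) at -1.07 ± 0.07 and the third vesicular carrier, Slc17a8, at -0.01 ± 0.13.

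Receptor families differed by subunit rather than as a whole. Of 20 GABA and glycine receptor genes 6 were called higher in the hypothalamus and 2 in the cerebrum, and the median log2 difference was 0.15 but -0.05 under median-of-ratios scaling. The theta subunit gene Gabrq lay at 21.3 to 29.4 FPKM (median 25.4) in the hypothalamus against 0.22 to 1.61 FPKM (median 0.37), a log2 difference of 4.06 ± 0.17, and the epsilon subunit gene Gabre at 13.3 to 18.0 FPKM (median 16) against 0.23 to 0.53 FPKM (median 0.35), one of 3.62 ± 0.08 (adjusted p = 1.61e-11). Gabrg1 (gamma 1) and the glycine receptor gene Glra1 followed at 1.81 ± 0.09 and 1.82 ± 0.09. The delta subunit gene Gabrd, which contributes to tonic inhibition, lay at 16 to 39.3 FPKM (median 20.6) in the cerebrum against 0.53 to 2.32 FPKM (median 1.37), a log2 difference of -3.45 ± 0.26, and Gabra4 (alpha 4) differed by -1.32 ± 0.13. Both members of the theta and epsilon pair were thus near 0 in the cerebrum, and delta and alpha 4 were both lower in the hypothalamus.

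Of 17 ionotropic glutamate receptor genes 1 was called higher in the hypothalamus and 3 in the cerebrum (median log2 difference -0.01), where 4.73% and 4.25% of all genes tested were. The NMDA receptor subunit genes split, with Grin2a at -2.03 ± 0.14 (median 0.97 against 7.69 FPKM), Grin2b at -1.22 ± 0.08 and Grin2d at 1.28 ± 0.10 (16 against 5.89 FPKM), and the AMPA receptor gene Gria3 differed by -1.42 ± 0.05. Of 7 metabotropic receptor genes only Grm3 was called, at -1.11 ± 0.08, and the median of that list was 0.04 but -0.15 under median-of-ratios scaling and -0.07 under quantile normalization. Of 27 receptors for serotonin, dopamine, noradrenaline and acetylcholine 3 were called higher in the hypothalamus and 7 in the cerebrum (median log2 difference -0.12). The muscarinic receptors split. Chrm1 lay at 32.6 to 42.5 FPKM (median 39.4) in the cerebrum against 2.85 to 5.08 FPKM (median 3.40), a log2 difference of -3.12 ± 0.11, and Chrm4 differed by -2.56 ± 0.15, while Chrm5, at 2.15 to 3.96 FPKM in the hypothalamus against 0.04 to 0.82 FPKM, differed by 1.61 ± 0.15. The alpha 1D adrenergic receptor gene Adra1d differed by -3.17 ± 0.21 and the serotonin receptor gene Htr7 by 1.33 ± 0.08. Of 9 opioid and cannabinoid genes 2 were called higher in the hypothalamus and 4 in the cerebrum (median -0.79). Oprk1 and Oprl1, receptors of dynorphin and nociceptin, differed by 1.5 ± 0.31 and 1.43 ± 0.08, and Mgll and Faah, the enzymes that degrade endocannabinoids, by -1.77 ± 0.11 and -1.31 ± 0.09.

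Receptors for steroid and other hormones bear on how each region reads the estrous cycle. Of 23 tested, 4 were called higher in the hypothalamus and 2 in the cerebrum, and the median log2 difference was -0.03. Esr1, estrogen receptor alpha, lay at 3.62 to 5.18 FPKM (median 3.99) against 0.37 to 1.77 FPKM (median 0.585), a log2 difference of 1.61 ± 0.14 (adjusted p = 5.77e-07), with its cerebrum maximum in estrus replicate 3. Prlr, the prolactin receptor gene, lay at 4.87 to 6.42 FPKM (median 5.64) against 0.50 to 2.0 FPKM (median 0.875), a log2 difference of 1.68 ± 0.13 (adjusted p = 1.5e-07). Avpr1a, a vasopressin receptor gene, differed by 1.58 ± 0.07 and the growth hormone receptor gene Ghr by 1.09 ± 0.06, which was 0.93 under median-of-ratios scaling. With a pseudocount of 5 the log2 differences of Esr1 and Prlr, at 0.68 and 0.79, also end their calls. The progesterone receptor gene Pgr lay at 4.18 to 5.48 FPKM (median 4.69) against 3.70 to 5.71 FPKM (median 5.02), a log2 difference of -0.03 ± 0.08 (adjusted p = 0.736), so its groups overlapped almost entirely. The oxytocin receptor gene Oxtr differed by -0.01 ± 0.14 (adjusted p = 0.96). On the cerebrum side the mineralocorticoid receptor gene Nr3c2 differed by -1.10 ± 0.18 and the somatostatin receptor gene Sstr4 by -1.72 ± 0.18. Esr2 lay under the mean of 1 FPKM and was not tested.

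Imprinted genes are expressed from 1 parental copy in some or all tissues, and the copies were not told apart here. They were called higher in the hypothalamus for 17 of 28 tested members and in the cerebrum for none, with a median log2 difference of 1.75. Th, Ddc and Peg3 stand in other lists too. Dlk1, a Notch-related protein, lay at 92.9 to 127 FPKM (median 112) against 1.06 to 12.7 FPKM (median 2.12), a log2 difference of 4.80 ± 0.32 (adjusted p = 5.17e-08). Peg10, a retrotransposon-derived gene, lay at 70.3 to 86.8 FPKM (median 83.1) against 3.01 to 8.55 FPKM (median 3.90), one of 3.88 ± 0.20, and Magel2, of the Prader-Willi region, at 22.2 to 25.7 FPKM (median 24.1) against 0.34 to 2.21 FPKM (median 0.635), one of 3.80 ± 0.16. Their groups were far apart. Asb4, a ubiquitin ligase subunit of the arcuate nucleus, differed by 3.51 ± 0.09, Zim1 by 2.80 ± 0.14 and Peg3 by 1.83 ± 0.08. Ndn, Nap1l5 and Nnat were among the most abundant of the imprinted genes, at medians of 551, 747 and 837 FPKM against 118, 168 and 196 FPKM, with log2 differences of 2.17 ± 0.12, 2.12 ± 0.09 and 2.14 ± 0.28. Gnas, the gene of the stimulatory G protein alpha subunit, lay at 1440 to 1695 FPKM against 699 to 885 FPKM, a log2 difference of 0.94 ± 0.06 without overlap and just under the limit. Snrpn, another gene of the Prader-Willi region, differed by 0.04 ± 0.03 (adjusted p = 0.304) at medians of 421 and 414 FPKM, and Mest by -0.32 ± 0.18, so the direction was shared by most members but not by all.

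Beyond the lists, 3 genes were among the 15 leading ones towards the hypothalamus. Arhgap36, a regulator of protein kinase A and Hedgehog signalling, lay at 36.2 to 45.2 FPKM (median 39.8) against 0.16 to 2.89 FPKM (median 0.375), a log2 difference of 4.51 ± 0.25. Irs4, an insulin receptor substrate, lay at 20.1 to 25.5 FPKM (median 23.1) against 0.09 to 0.78 FPKM (median 0.125), one of 4.23 ± 0.13, and AW551984 at 61.5 to 72.0 FPKM (median 67.8) against 1.56 to 7.51 FPKM (median 1.70), one of 4.26 ± 0.25. The groups of all 3 were separated, which the choice of leading genes required. In the cerebrum each of the 15 leading genes on this side was highest in estrus replicate 2 or estrus replicate 3. Dlk1, for instance, lay at 5.26 and 12.7 FPKM in these libraries and at 1.06 to 2.42 FPKM in the other cerebrum libraries. The cause was not tested.

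Markers of the cell types in brain tissue describe what the pieces held. Of 12 neuronal genes 2 were called higher in the cerebrum (median log2 difference -0.16), Rbfox3 (NeuN) at -1.29 ± 0.07 and the synaptic vesicle protein gene Syt1 at -1.12 ± 0.04, while Snap25 differed by -0.97 ± 0.09, past the limit at -1.17 under median-of-ratios scaling, and the tubulin gene Tubb3 by 0.49 ± 0.06. Of 19 oligodendrocyte genes none was called, but all 19 had a mean above the cerebrum's (median 0.53). Mbp, a main myelin protein, lay at a median of 1630 FPKM against 1117 FPKM with overlapping groups, and Olig1 at 72.1 to 89.1 FPKM against 43.4 to 55.7 FPKM without overlap (0.65 ± 0.05). Oligodendrocyte precursor (7 genes, median 0.21), microglial (12 genes, -0.31), endothelial (10 genes, -0.06), meningeal (10 genes, 0.21) and blood genes (4 genes, -0.44) gave no call either. Among them the microglial P2ry12 and Cx3cr1 differed by -0.72 ± 0.06 and -0.45 ± 0.07 without overlap, C1qa and Ctss by -0.11 ± 0.07 and 0.08 ± 0.05, Ptgds, abundant in meninges, by 0.30 ± 0.43 and the hemoglobin gene Hba-a1 by -0.40 ± 0.74. The blood list stood highest in diestrus replicate 3 of both tissues, at 6.87 and 6.82 in mean log2(FPKM + 1), against 3.27 to 5.48 in the other 10 libraries.

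Of 14 astrocyte genes 2 were called higher in the hypothalamus and 1 in the cerebrum (median log2 difference 0.43). Agt, angiotensinogen, which astrocytes of the hypothalamus secrete, lay at 193 to 232 FPKM (median 209) against 7.35 to 33.6 FPKM (median 20.4), a log2 difference of 3.45 ± 0.26, and Itih3 at 114 to 162 FPKM (median 133) against 4.28 to 12.3 FPKM (median 8.57), one of 3.84 ± 0.18. The call in the other direction was Slc1a2, given above. Of 15 ependymal and tanycyte genes, which mark the lining of the third ventricle, 8 were called higher in the hypothalamus and 2 in the cerebrum (median 1.39). That median was 0.87 under median-of-ratios scaling and 1.03 without hypothalamus estrus replicate 2. Gpr50, an orphan receptor of tanycytes, lay at 8.69 to 12.8 FPKM (median 9.75) against 0.06 to 0.30 FPKM (median 0.135), a log2 difference of 3.30 ± 0.10, and Rax, the retina and anterior neural fold factor that tanycytes keep, at 0.74 to 2.97 FPKM against 0 to 0.07 FPKM, one of 1.46 ± 0.15. In both fits behind those other medians Rax fell under the mean of 1 FPKM, so these medians cover fewer genes. The Rax call was made in 7 of the 12 fits that left out 1 library. Ccdc153 and Foxj1 of ciliated cells differed by 2.2 ± 0.23 and 1.53 ± 0.11 and Rarres2 (chemerin) by 2.10 ± 0.13. Dio2, the deiodinase that activates thyroid hormone in tanycytes and astrocytes, was called higher in the cerebrum, at 10.1 to 23.3 FPKM (median 16.7) against 2.69 to 4.46 FPKM (median 3.17), a log2 difference of -2.04 ± 0.18 (adjusted p = 5.7e-07). It was thus opposite in direction to Gpr50 and Rax of the same list.

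Choroid plexus genes varied with the library. Ttr, transthyretin, the thyroid hormone carrier that choroid plexus secretes into cerebrospinal fluid, lay at 25 to 713 FPKM (median 219) in the cerebrum and 1.65 to 13.8 FPKM (median 3.78) in the hypothalamus, a log2 difference of -5.25 ± 0.66 (adjusted p = 1.35e-05). The lowest cerebrum library still lay above the highest hypothalamus library. Of 8 choroid plexus genes 2 were called higher in the hypothalamus, the chloride channel gene Clic6 at 1.43 ± 0.31 and Prlr, which neurons express too, and 1 in the cerebrum (median log2 difference -0.24, and 0.17 within diestrus). The list's mean log2(FPKM + 1) ranged from 1.39 to 3.23 over the cerebrum libraries and from 1.48 to 2.02 over the hypothalamus libraries. How much choroid plexus each piece held was not measured here.

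**Figure D5:**
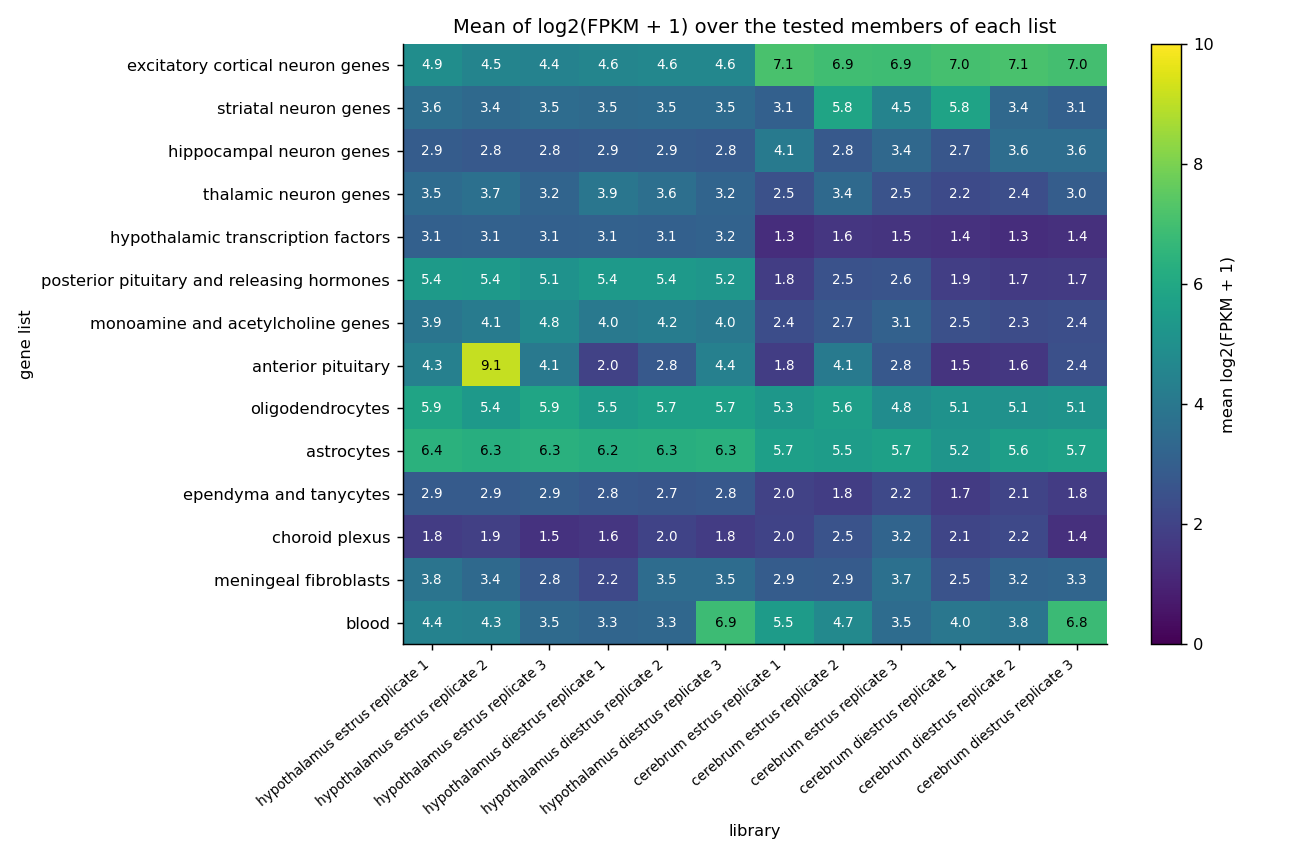
Mean of log2(FPKM + 1) over the tested members of 14 lists (rows) in each of the 12 libraries (columns), printed in each cell and coloured from 0 to 10. The hypothalamus columns differ most in the anterior pituitary list (9.13 in estrus replicate 2) and the blood list (6.87 in diestrus replicate 3), whereas among the cerebrum columns the striatal list moves between 3.05 and 5.84 and the hippocampal list between 2.66 and 4.08.

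Anterior pituitary markers were checked because of hypothalamus estrus replicate 2. Prl lay at 9.29 to 21607 FPKM (median 194) in the hypothalamus and 5.01 to 256 FPKM (median 20.9) in the cerebrum, a log2 difference of 2.92 ± 1.23 (adjusted p = 0.0486), and Gh at 3.65 to 9200 FPKM (median 87.4) against 2.69 to 124 FPKM (median 10.2), one of 2.75 ± 1.24 (adjusted p = 0.0634). Cga, the alpha subunit shared by the pituitary glycoprotein hormones, and Lhb, the beta subunit of luteinizing hormone, peaked in the same library at 338 and 67.8 FPKM and were called at 2.71 ± 0.95 and 1.66 ± 0.67. Of 5 pituitary genes tested 3 were called (median log2 difference 2.71). Without that library the median was 1.69, Prl differed by 1.81 and was not called, Cga differed by 1.76 and stayed called, Gh differed by 1.62, and Lhb, Krt90, 4933403O08Rik and Brs3 fell under the mean of 1 FPKM and left the test. Among those, Krt90, 4933403O08Rik and Brs3 had non-overlapping groups at about 2 FPKM in the hypothalamus, so what ended their calls was the filter and not a change of their values. The cerebrum library highest in these genes, estrus replicate 2, held 256 FPKM of Prl and 124 FPKM of Gh as well as the 16.8 FPKM of Pmch. The ratio of Prl to Gh in FPKM was 1.83 to 3.72 over the 12 libraries.

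Set beside the other 13 tissues of the series, the called genes were often at their highest in 1 of the 2 regions. The hypothalamus had the highest mean of all 15 tissues for 312 of its 628 calls (49.7%) against 14.6% of all genes tested, and the cerebrum for 381 of its 565 (67.4%) against 12.1%. A call already placed its gene above the other brain region, so the choice of calls favoured both shares. For 96 hypothalamus calls (15.3%) and 66 cerebrum calls (11.7%) the mean stayed under 1 FPKM in all 13 other tissues, against 3.43% of the genes tested. Hypothalamus calls with their highest mean outside both regions were highest in the uterus for 70, the ovary for 37, the liver for 31 and the kidney for 27 genes, and cerebrum calls of that kind in the spleen for 29, skeletal muscle for 24 and the uterus and the stomach for 20 each. These are means of 6 libraries and carry no test. Mean levels of Hcrt, Oxt and Avp stayed under 1 FPKM in all 13 tissues and the mean of Pmch was at most 1.07 FPKM, in the ovary.

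The tissue difference was then compared between estrus and diestrus. The interaction of tissue and phase was called for 0 of 13280 genes (0%) by limma, with a smallest adjusted p of 0.999, and 522 genes (3.93%) had an unadjusted p under 0.05. The genes with the smallest p were Col25a1, a membrane collagen (interaction -0.64 ± 0.13 on the log2 scale, the tissue difference in estrus minus that in diestrus), Emx1 (0.70 ± 0.15), the mitochondrial assembly factor gene Uqcc2 (0.39 ± 0.08), Fstl5 (-0.69 ± 0.15) and Sdk2 (0.47 ± 0.10), and none passed the adjustment. Of these Col25a1 and Fstl5 were called higher in the hypothalamus, at 1.25 ± 0.11 and 1.37 ± 0.12, and Emx1 higher in the cerebrum, at -3.29 ± 0.12. One fit of all 90 libraries, in which the spread of the other tissues enters the error, called 3 genes, Oxt (-1.34 ± 0.30, adjusted p = 0.0226), the orphan receptor gene Gpr101 (-1.06 ± 0.16, adjusted p = 4.14e-05) and Gm21953 (1.39 ± 0.31, adjusted p = 0.0224), named here after their values were seen. In the fit of the 12 libraries the same 3 interactions had SEs of 0.56, 0.38 and 0.31 and unadjusted p of 0.0359, 0.0178 and 0.000978. In the hypothalamus Oxt lay at 191 to 546 FPKM in estrus and 337 to 534 FPKM in diestrus, with overlap. In the cerebrum it lay at 0.97 to 3.24 FPKM in estrus and 0.03 to 0.62 FPKM in diestrus. The Oxt interaction thus came from low cerebrum values and not from a phase difference in the hypothalamus. The most abundant genes by mean FPKM were Prl (through 1 library), Gapdh, Ubb, Gm20594 and Mbp in the hypothalamus and Gapdh, Gm20594, Fth1, Nrgn and Snap25 in the cerebrum.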

How the data were processed

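Per the labels and the methods, the authors sequenced on BGISEQ-500, filtered reads with SOAPnuke, aligned them to GRCm38.p5 with Bowtie2 2.2.5, quantified genes with RSEM 1.2.8 and deposited FPKM values. FPKM is scaled per library, so a gene with a large share lowers the others. RSEM divides multi-mapping reads between gene copies and strand use is not given in the sources used here, so close copies and overlapping genes are uncertain. Only 50% to 66% of low values lay within 0.2 of a whole read, so counts were not recovered and log2(FPKM + 1) was fitted with limma 3.58.1 in R 4.3.3 (tissue and phase, intensity trend). This scale understates changes of low genes. In simulated data of 13280 genes with 200 changed in this comparison, 46% of log2 differences of 1 and 100% of those of 1.5, 2 or 3 were called. A true difference of 1 lies at the limit itself, so the 46% reflects the limit and not the power. Unlike the data, the simulation had the same spread in both tissues and few changed genes. Alternatives were pseudocounts, filters, scalings, library weights, phases alone, a replicate block, a fit of all 90 libraries and leaving out each library.

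The comparison and the gene lists were chosen with earlier results of these data known. Named genes were the 15 leading ones per direction, in each list the 4 with the largest difference in each direction and the 4 most abundant, a fixed set of reproductive genes, the 5 largest calls lost without hypothalamus estrus replicate 2, the 5 smallest interaction p and the 5 most abundant genes per tissue. A further 33 list members and 2 genes of the interaction were named after their values were seen. A few genes covered by this rule are not reported here.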

Additional observations from a re-analysis of the deposited data

Results flagged for a closer look

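In 36 of 444 sets of 6 libraries (8.1%), taken over the genes named above and the gene lists, the highest or lowest value lay far from the other 5 by Dixon's ratio of gap to range, which chance alone gives in about 1 in 20 sets. Of the 36, 7 were in hypothalamus estrus replicate 2, 6 in estrus replicate 1 and 6 in estrus replicate 3 of the hypothalamus, and 4 each in estrus replicates 2 and 3 of the cerebrum. No explanation is weighed here.

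Hypothalamus estrus replicate 2 stood alone in Pomc at 710.6 FPKM (others 22.13 to 68.69), Lhb at 67.75 (1.12 to 1.95), Fos at 18.87 (8.71 to 11.59), Mest at 25.77 (9.75 to 12.52), Nnat at 1003 (784.9 to 856.7) and Gnas at 1695 (1440 to 1517), and in the mean log2(FPKM + 1) of the anterior pituitary list at 9.132 (1.963 to 4.353). Hypothalamus estrus replicate 1 stood alone in Slc17a7 at 21.22 FPKM (2.6 to 6.12), Rtn4rl2 at 2.46 (0.39 to 0.55), Ddn at 24.84 (11.87 to 14.62), Ptk2b at 15.77 (8.1 to 10.28), Nrgn at 263.1 (105.2 to 136.7) and Lhx2 at 8.16 (4.27 to 5.42). These 6 genes were all called higher in the cerebrum.

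Hypothalamus estrus replicate 3 was the highest in Th at 79.68 FPKM (21.78 to 29.79), Ddc at 52.52 (19.92 to 26.3), Slc18a2 at 33.77 (12.06 to 16.86), Cartpt at 200.7 (66.51 to 88.67) and the monoamine and acetylcholine list at 4.757 in mean log2(FPKM + 1) (3.893 to 4.2), and the lowest in Nr2f2 at 19.99 FPKM (22.91 to 24.7). In the diestrus libraries of the hypothalamus, replicate 3 stood apart in Glra1 at 2.83 FPKM (3.47 to 3.68), Zim1 at 15.15 FPKM (12.65 to 13.5) and the blood list at 6.866 in mean log2(FPKM + 1) (3.268 to 4.43), and replicate 2 in Fibcd1 at 2.35 FPKM (1.83 to 2.01).

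Cerebrum estrus replicate 2 held Pmch at 16.78 FPKM (others 0.32 to 2.1), Cckar at 0.43 (0.02 to 0.09), Cga at 3.72 (0 to 0.47) and Cort at 4.2 (7.42 to 9.24). Cerebrum estrus replicate 3 held Slc6a3 at 5.97 FPKM (0.04 to 0.15), Esr1 at 1.77 (0.37 to 0.61), Nr2f2 at 27.73 (7 to 10.19) and Oxtr at 4.83 (2.02 to 2.57). Cerebrum estrus replicate 1 held Wipf3 at 110.5 FPKM (51.83 to 68.38) and Nr3c2 at 21.44 (7.8 to 11.06), diestrus replicate 3 held Hcrtr2 at 1.38 (0.69 to 0.86) and Foxb1 at 0.58 (0 to 0.17), and diestrus replicate 1 held Rbfox3 at 127.8 (92.6 to 104.2).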

How the results depend on the processing

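The calls moved most with settings that act on low genes or on the limit. Genes higher in the hypothalamus numbered 380 with a mean of at least 5 FPKM, 234 with a pseudocount of 5 and 127 at a limit of 2, in place of 628, and genes higher in the cerebrum 341 with a pseudocount of 5 and 120 at a limit of 2, in place of 565. Fewer genes enter the first of these by construction, and a larger pseudocount shrinks low genes. Leaving out 1 library gave 607 to 671, 547 to 581 and, for the interaction of tissue and phase, 0 to 0 calls, and one fit of all 90 libraries called 3 interactions in place of 0, for a cause that was not tested. Same-numbered libraries of the 2 tissues correlated over 0.1 in their deviations in 3 of 6 pairs (r 0.019 to 0.221, against -0.131 to 0.020 for other numbers), and 5 of 6 hypothalamus libraries were closest to their own number, a hint from the data only. Deviations within a tissue and phase sum to 0, so positive values for own numbers force lower ones for other numbers, which are no separate contrast. The fit with a replicate block called 630 and 565 genes, including all 628 and 565, and 0 interactions. Without estrus replicate 2 of both tissues 620 and 552 genes were called, and without the 2 cerebrum libraries rich in striatal genes 603 and 539, both chosen after seeing the data.

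For the 188 genes named, 26 alternatives gave 4826 values, of which 4671 stayed on their side of the limits, 143 lost the call, 12 gained it and 0 changed sign as a called value, and 42 sign changes concerned genes called in neither fit. Of 150 called genes 102 were called under every alternative in which they were tested, and a pseudocount of 5 ended 45 calls. For 9 of 34 lists the median changed sign under some alternative, in each case between small values except those given above. The files hold no read counts, so the counting error of low genes is unknown.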
